A study of Mus musculus with 6 samples.

Results

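The Slc22 genes encode membrane carriers of organic cations, organic anions and carnitine, and 10 of them were described in the testis of Phf13 knockout and wild-type mice. A probe set, the group of short probes that the array uses for 1 transcript, was included if its platform symbol was exactly one of these genes. That rule gave 11 probe sets for 9 of the 10 genes, out of 34945 probe sets with a single symbol and 18193 genes, and Slc22a3 was not analysed here. Total RNA of whole testis was measured on 6 Affymetrix arrays, 3 labelled Phf13 knockout and 3 labelled wild type, all from mice aged 5 weeks. Phf13 encodes a reader of methylated histone H3. Strain and the design of the deleted allele are not in the labels. Nor do they say that the arrays come from separate animals, and the p-values then cover only the variation among these 6 samples, some of which may be technical. The members were chosen by family together with the knockout minus wild type difference of Slc22a29, which was among the probe sets higher in knockout on these same arrays. All differences between the genotypes of its members are therefore descriptions, with no test read from them.

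SLC22 proteins have many membrane-spanning segments and carry small charged molecules into or out of cells. One branch moves organic cations, another organic anions such as urate, and another, the OCTN branch, moves carnitine and related zwitterions. Carnitine is needed to bring long-chain fatty acids into mitochondria, and it is concentrated in the epididymis and in sperm. Whole testis mixes germ cells with Sertoli, Leydig and other somatic cells, so fewer cells of a type and less RNA per cell cannot be told apart in these values.

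The Phf13 probe set stood at 6.71, 6.6 and 6.55 in the 3 knockout arrays, against 9.55, 9.47 and 9.56 in the 3 wild-type arrays, on the deposited log2 scale. Testis markers were bright: the mean of 6 elongating spermatid genes ran from 13.36 to 13.39 in knockout and from 13.34 to 13.40 in wild type. Signals of the control probe sets for 18S ribosomal RNA divided the arrays in 2, with knockout 1, wild type 1 and wild type 2 at 12.03 to 12.67 and knockout 2, knockout 3 and wild type 3 at 9.69 to 10.71. Both sets held both genotypes, so differences were also taken within each. Brightness depends on the probes, so levels of different probe sets were not ranked; each is placed only against the quartiles of its own array, whose lower quartile ran from 3.66 to 3.76 and upper quartile from 7.22 to 7.35.

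Slc22a29 belongs to a run of organic anion transporter genes that lie side by side on chromosome 19, and no substrate is named for it here. In RefSeq assembly GRCm38.p6 the order is Slc22a19, Slc22a26, Slc22a27, Slc22a28, Slc22a29, Slc22a30, Slc22a8 and Slc22a6. Slc22a28 and Slc22a30 flank Slc22a29, and the 250 bases before 1 RefSeq transcript start of each of these 3 genes were compared. These starts do not have like positions in the annotated genes. That of Slc22a29 lies inside its gene, which runs from 8160168 to 8253375. Those of Slc22a28 and Slc22a30 lie at the upper ends of their genes, near 8131982 and 8405111. The alignments thus compare these stretches only, and not the whole upstream regions of the genes. All 3 stretches are written 5′ to 3′ from the minus strand of GRCm38.p6. Capitals mark the bases that lie upstream of the stretch aligned between Slc22a29 and its neighbour; for Slc22a29 the alignment with Slc22a30 was used.
Slc22a29, chr19:8218901-8219150: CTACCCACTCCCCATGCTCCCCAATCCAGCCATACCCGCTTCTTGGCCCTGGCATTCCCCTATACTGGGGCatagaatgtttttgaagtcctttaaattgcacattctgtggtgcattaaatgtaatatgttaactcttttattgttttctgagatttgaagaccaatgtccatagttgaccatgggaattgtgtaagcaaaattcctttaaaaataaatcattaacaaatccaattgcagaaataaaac
Slc22a28, chr19:8131983-8132232: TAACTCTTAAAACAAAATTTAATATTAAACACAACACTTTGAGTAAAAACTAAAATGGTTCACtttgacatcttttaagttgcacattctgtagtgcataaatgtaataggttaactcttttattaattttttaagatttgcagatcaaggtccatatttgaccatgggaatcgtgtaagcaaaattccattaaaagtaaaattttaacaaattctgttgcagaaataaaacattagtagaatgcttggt
Slc22a30, chr19:8405106-8405355: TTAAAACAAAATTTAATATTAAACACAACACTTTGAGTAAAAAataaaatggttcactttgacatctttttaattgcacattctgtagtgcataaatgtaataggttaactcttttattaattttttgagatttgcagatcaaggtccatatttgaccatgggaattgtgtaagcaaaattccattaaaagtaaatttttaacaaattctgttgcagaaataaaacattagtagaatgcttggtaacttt
The Slc22a28 and Slc22a30 stretches were identical at 238 of 244 aligned columns (97.5%). Slc22a29 matched Slc22a30 at 158 of 184 aligned columns (85.9%) and Slc22a28 at 146 of 170 (85.9%). Its first 71 bases, in capitals, fell outside the alignment with Slc22a30. Against Slc22a19 it matched at 96 of 136 aligned columns (70.6%), and against Slc22a26 and Slc22a27 the best local alignments spanned only 14 and 12 columns. No measurement here reports on binding or activity at these stretches.

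Slc22a29 was the only member with a large difference between the genotypes. Its single probe set, of the _x_at kind, stood at 6.23, 6.97 and 6.16 in the 3 knockout arrays, against 3.96, 4.36 and 4.14 in the 3 wild-type arrays. All knockout arrays lay above all wild-type arrays, with knockout 2 the highest. The means were 6.45 ± 0.45 in knockout and 4.15 ± 0.20 in wild type (SD, n = 3 each), a difference of 2.30 on the log2 scale (limma SE 0.21), which is 4.92-fold. On the wild-type arrays the value lay below the array median and above the lower quartile, and on the knockout arrays it lay above the median and below the upper quartile. Among the arrays of high 18S signal the difference was 2.07, and among those of low 18S signal it was 2.43.

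The ending _x_at marks a probe set in which some probes can also match other transcripts, which bears on a gene with such close neighbours. A second probe set, 1451635_at, is annotated to both Slc22a30 and Slc22a29, comes from the same source transcript in the platform annotation, and has no _x_at ending. It is outside the rule because it has several symbols. Its values were 6.77, 7.33 and 6.76 in knockout, against 4.26, 4.38 and 4.33 in wild type, a difference of 2.63 (SE 0.15), or 6.19-fold. Knockout 2 was again the highest array, and the groups did not overlap. Over the 6 arrays the 2 probe sets had a Pearson correlation of 0.99, a description of values that share their arrays and their source transcript.

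The probe set that carries the symbol Slc22a30 alone, 1436162_at, did not show such a difference. It stood at 4.46, 4.25 and 4.13 in knockout, against 4.15, 4.29 and 4.14 in wild type, a difference of 0.09 (SE 0.11) with overlapping groups. Elsewhere in the run, Slc22a19 differed by 0.13 and Slc22a27, also of the _x_at kind, by 0.23. The probe sets of Slc22a26 differed by 0.21 and -0.01, those of Slc22a8, a kidney and brain organic anion transporter, by 0.10 and 0.03, and those of Slc22a6, its kidney counterpart, by 0.07 and -0.03. None of these 9 neighbour probe sets had a limma adjusted p under 0.05, where 0.0999% of all probe sets did. Only 1, of Slc22a26, had an unadjusted limma p under 0.05, where 15.1% did. All 9 were dim, with no value above the median of its array. Those of Slc22a19 and Slc22a27, and 1 each of Slc22a26 and Slc22a6, lay below the lower quartile on all 6 arrays. A small difference in so dim a probe set says little about its gene. Slc22a28 was not analysed here. The genes beyond the run, Plaat5 on one side and Chrm1 and Slc3a2 on the other, differed by -0.05, -0.05 and 0.14. Of the 11 probe sets of the run, differences above 2 log2 units thus came from the 2 made from this source transcript.

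**Figure D1:**
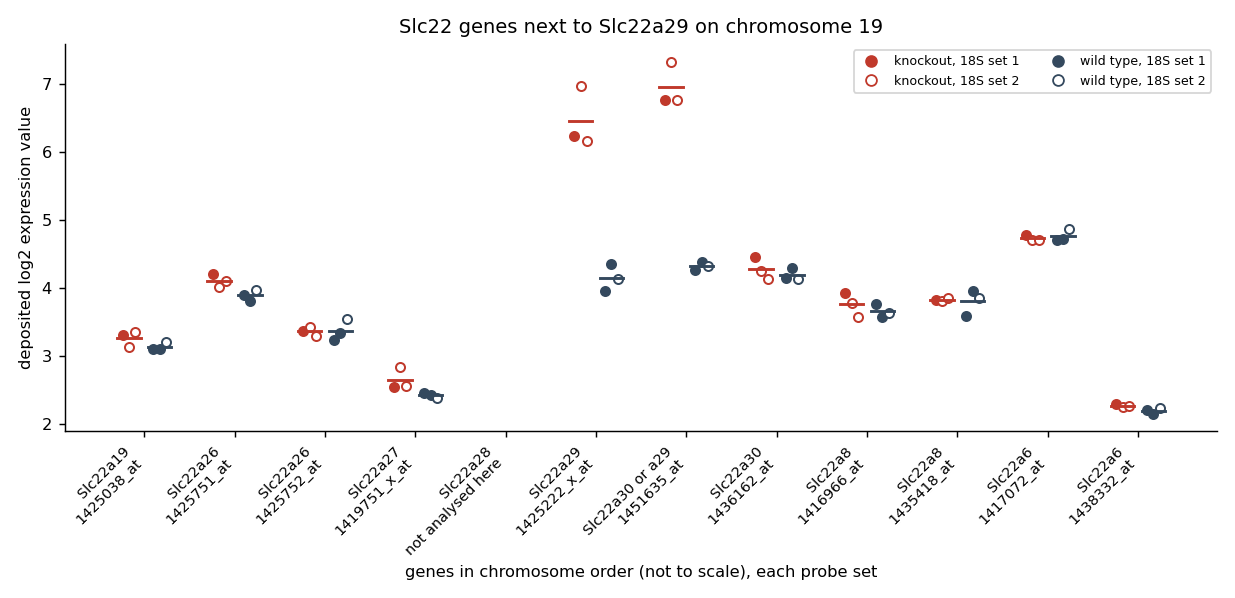
Deposited log2 values of every probe set of the Slc22 run on chromosome 19, in gene order and not to scale, with knockout arrays (red) left of wild-type arrays (dark blue), filled for the first and open for the second 18S set, and lines at group means. The probe set of Slc22a29 and the one annotated to Slc22a30 and Slc22a29 stand between 6.16 and 7.33 in knockout and between 3.96 and 4.38 in wild type, and the other probe sets show no such gap.

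Besides Slc22a29, no member was called. At a limma adjusted p under 0.05, 1 of 11 member probe sets was higher, where 0.0555% of all 45037 probe sets were, and 0 were lower, where 0.0444% were; nothing is read from this, because the contrast chose the family. The call on Slc22a29 was lost without wild type 1 or without wild type 2, and with runs of consecutive title codes as a block. Of the 10 other member probe sets, 5 lay above 0 and 5 below (48.6% of all probe sets lay below), from -0.36 to 0.29. At an unadjusted p under 0.05 limma had 0 of these 10 higher, where 6.81% of all probe sets were, and 1 lower, that of Slc22a21, where 8.31% were. Groups did not overlap in 3 member probe sets as higher (8.62% over all probe sets) and in 2 as lower (10.7%). The median difference over the 11 was 0.06, and over all probe sets 0.00.

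The OCTN branch, 3 adjacent genes on chromosome 11, was mixed. Slc22a5 encodes OCTN2, the high-affinity carnitine transporter whose loss in the mouse and in humans causes carnitine deficiency. Its brighter probe set, 1450395_at, stood at 8.89, 9.02 and 9.0 in knockout, against 9.06, 9.21 and 9.11 in wild type, above the upper quartile on all 6 arrays. The knockout arrays lay just below the wild-type arrays, with a difference of -0.16 (SE 0.09). Its other probe set, 1421848_at, stood near the array medians at 5.63 ± 0.095 in knockout and 5.67 ± 0.16 in wild type (SD, n = 3 each), and the groups overlapped.

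Slc22a21 encodes OCTN3, a carnitine transporter described in the mouse. Its probe set, 1449215_at, stood at 9.33, 9.52 and 9.27 in knockout, against 9.70, 9.89 and 9.62 in wild type. All knockout arrays lay below all wild-type arrays. The difference of -0.36 (SE 0.11), or 1.29-fold lower in knockout, was the most negative among the members, and it was -0.465 at high and -0.225 at low 18S signal. Slc22a4 encodes OCTN1, a carrier of the antioxidant ergothioneine. It was dim, at 3.32, 3.33 and 3.82 in knockout, against 3.11, 3.21 and 3.29 in wild type, and 5 of its 6 values lay below the lower quartile of their arrays. The groups did not overlap, knockout 3 was the highest array, and the difference of 0.29 (SE 0.14) was 0.12 without it. The genes on either side of these 3, Rad50, Il5 and Irf1 and then Pdlim4, P4ha2 and Csf2, had differences from -0.27 for Rad50 to 0.29 for Csf2, and 0 of them had a limma adjusted p under 0.05.

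Slc22a16 and Slc22a14 are the members best known from male germ cells. Slc22a16, also called CT2, is a carnitine transporter that in humans is found in testis and epididymis. It stood at 10.40, 10.25 and 10.03 in knockout, against 10.56, 10.53 and 10.15 in wild type. Slc22a14 encodes a transporter of sperm that mice need for male fertility. It stood at 10.41, 10.15 and 10.03 in knockout, against 10.60, 10.31 and 10.25 in wild type. Both genes lay above the upper quartile on all 6 arrays, and in both the groups overlapped. The differences were -0.19 for each gene (SE 0.14 for Slc22a16 and 0.13 for Slc22a14). For Slc22a16 it was -0.145 at high and -0.01 at low 18S signal, and for Slc22a14 it was -0.045 and -0.16. The arrays of low 18S signal minus those of high gave -0.35 for Slc22a16 and -0.30 for Slc22a14, each farther from 0 than the genotype difference.

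The remaining members are best known outside germ cells. Slc22a12 encodes URAT1, which takes up urate in the kidney, and has 2 probe sets; 1 of them, 1422898_s_at, has the ending that marks probes shared by several transcripts. The 1422897_at set stood at 6.43, 6.51 and 6.40 in knockout, against 6.32, 6.33 and 6.50 in wild type, and the _s_at set at 6.23, 6.67 and 6.66, against 6.33, 6.29 and 6.51. Groups overlapped in both, with differences of 0.06 (SE 0.09) and 0.14 (SE 0.14), and each had opposite signs at high and low 18S signal. Of the 6 kidney tubule markers, Umod and Slc12a1 lay below the lower quartile on all 6 arrays, Aqp2 and Kap lay above the median on all 6, and Slc34a1 and Lrp2 lay between these bounds. Their list mean ran from 4.22 to 4.36 in knockout and from 4.29 to 4.44 in wild type.

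Slc22a17, the receptor for lipocalin 2, was measured by 1448209_a_at, whose _a_at ending marks several transcripts of 1 gene. It varied least among the members: 6.93, 6.86 and 6.89 in knockout, against 6.82, 6.79 and 6.82 in wild type. The groups did not overlap, at a difference of 0.08 (SE 0.08), about the size of its standard error. Slc22a23 has no settled substrate. It stood at 4.15, 4.38 and 4.21 in knockout, against 4.25, 3.85 and 3.79 in wild type, and the groups overlapped, with a difference of 0.28 (SE 0.14) that was 0.10 at high and 0.505 at low 18S signal.

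**Figure D2:**
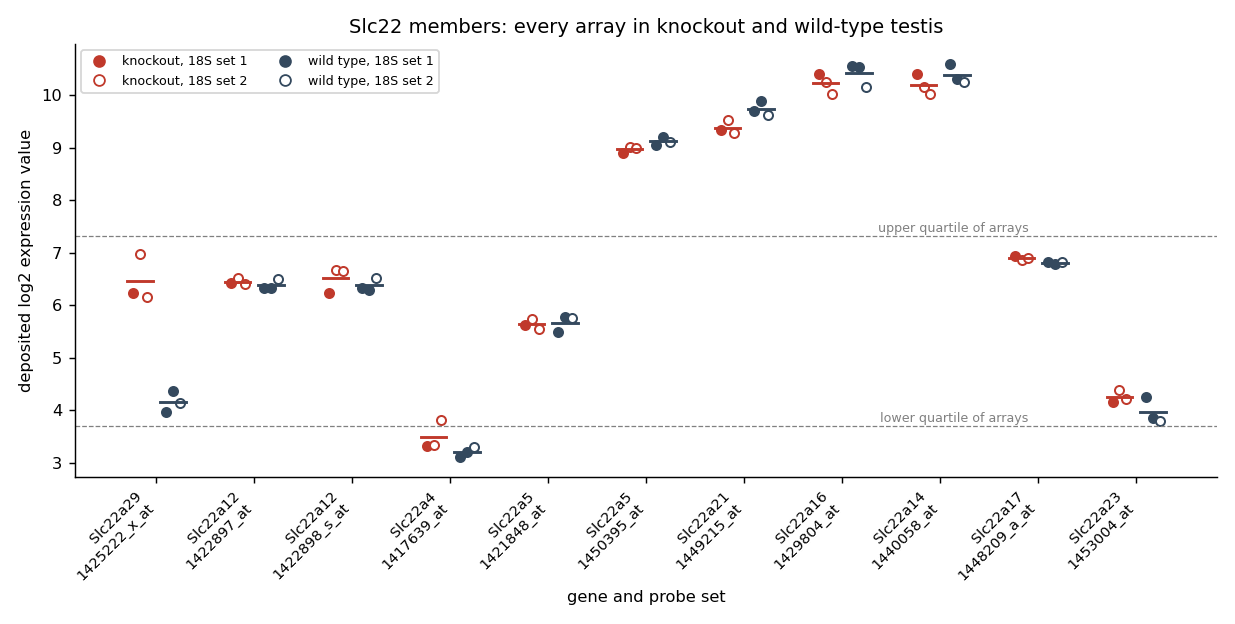
Deposited log2 values of the 11 member probe sets on every array, with knockout (red) left of wild type (dark blue), filled for the first and open for the second 18S set, lines at group means and dashed lines at the mean lower and upper quartiles of the arrays. Slc22a29 alone shows a wide gap between the genotypes, and Slc22a14, Slc22a16, Slc22a21 and the brighter probe set of Slc22a5 lie above the upper quartile in both.

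The other genes of the family were measured by 17 probe sets for 12 genes. In limma 0 had an adjusted p under 0.05, with 2 higher and 5 lower when p was left unadjusted, against 15.1% of all probe sets in either direction. The 5 lower ones were both probe sets of Slc22a15 (-0.38 and -0.58), both of Slc22a18 (-0.56 and -0.26) and that of Slc22a22 (-0.31). In these 5 the groups did not overlap, as in 10.7% of all probe sets in the lower direction. In 4 others the groups did not overlap as higher (8.62% over all probe sets). These were the probe sets of Slc22a2 and Slc22a27 and 1 each of Slc22a6 and Slc22a26. With limma the smallest adjusted p of the 17 was 0.106, for Slc22a18. Without wild type 3 this probe set passed as lower (limma adjusted p = 0.0444), as did 1 of Slc22a15 (limma adjusted p = 0.0413). Leaving out that array also raised the lower calls over all 45037 probe sets from 20 to 998. Slc22a2, an organic cation transporter of the kidney, differed by 0.36 (SE 0.13).

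**Figure D3:**
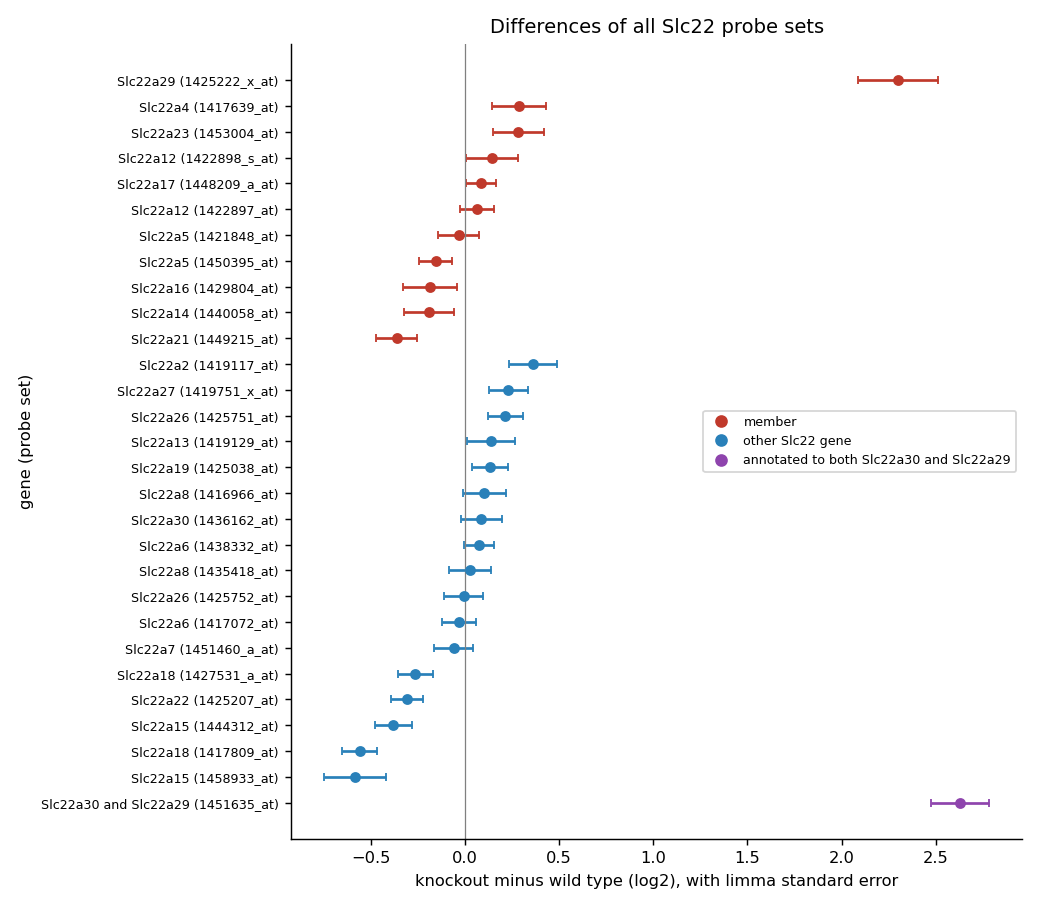
Knockout minus wild type on the log2 scale for every Slc22 probe set, with limma standard errors, for members (red), other family genes (blue) and the probe set annotated to Slc22a30 and Slc22a29 (purple). The member probe set of Slc22a29 at 2.30 and the shared one at 2.63 stand apart, and all others lie between -0.58 and 0.36.

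Genes that work with these carriers showed no calls. Over 6 lists, 71 of 80 genes were measured, and 0 had a limma adjusted p under 0.05 in either direction; 10 were higher and 13 lower with an unadjusted p under 0.05, where 6.81% of all probe sets were higher and 8.31% lower. The list of carnitine synthesis and use had a median of 0.085 over 14 genes, with 3 higher and 4 lower by that unadjusted p. Cpt2, which frees fatty acids from carnitine inside mitochondria, stood at 9.40, 9.38 and 9.27 in knockout, against 9.82, 9.72 and 9.57 in wild type, a difference of -0.35 (SE 0.10, limma adjusted p = 0.214). Crat, the carnitine acetyltransferase, differed by -0.33 (SE 0.10, limma adjusted p = 0.239), and Acadvl, an enzyme of very-long-chain fatty acid oxidation, by -0.29 (SE 0.09, limma adjusted p = 0.222). In each of these 3 genes all knockout arrays lay below all wild-type arrays. They have the smallest p-values of the list, but 9 of its 14 genes lay above 0. The 3 higher by unadjusted p were Slc6a14, an amino acid and carnitine transporter, at 0.93 (SE 0.36), Acadm, the medium-chain acyl-CoA dehydrogenase, at 0.40 (SE 0.14), and Tmlhe, the first enzyme of carnitine synthesis, at 0.26 (SE 0.09). Groups overlapped in Slc6a14 and Acadm and did not in Tmlhe.

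The list of lipocalin and iron uptake genes had a median of 0.18 over 9 genes, with 3 higher and 1 lower by unadjusted p. Lcn2, which encodes the lipocalin bound by the Slc22a17 receptor, had the most negative difference of the list, at 10.09, 10.41 and 9.98 in knockout, against 10.77, 10.84 and 11.10 in wild type. Its groups did not overlap, and the difference of -0.74 (SE 0.14) had a limma adjusted p of 0.140. The aconitase and iron regulator Aco1 differed by 0.59 and the iron exporter Slc40a1 by 0.49.

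The remaining lists lay near 0. The list of 15 Slco genes, another family of organic anion carriers, had a median of -0.04, with 1 higher and 4 lower by unadjusted p. The smallest p-values in it belonged to Slco3a1 (-0.33), Slco6c1 (-0.23) and Slco6d1 (-0.25). The list of organic cation and amine genes had a median of 0.06 over 10 genes. In it Maob, an amine oxidase, differed by 0.65 (SE 0.19, limma adjusted p = 0.220), with 0.23 at high and 0.78 at low 18S signal. Maoa differed by 0.21 and the serotonin transporter gene Slc6a4 by -0.17. The list of urate and organic anion genes had a median of 0.06 over 11 genes, with Slc13a3 at -0.26, Pdzk1, a scaffold of apical transporters, at -0.18 and Slc9a3r1 at 0.17. The other Slc22 family genes, taken as 1 probe set a gene, had a median of 0.06 over 12 genes.

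**Figure D4:**
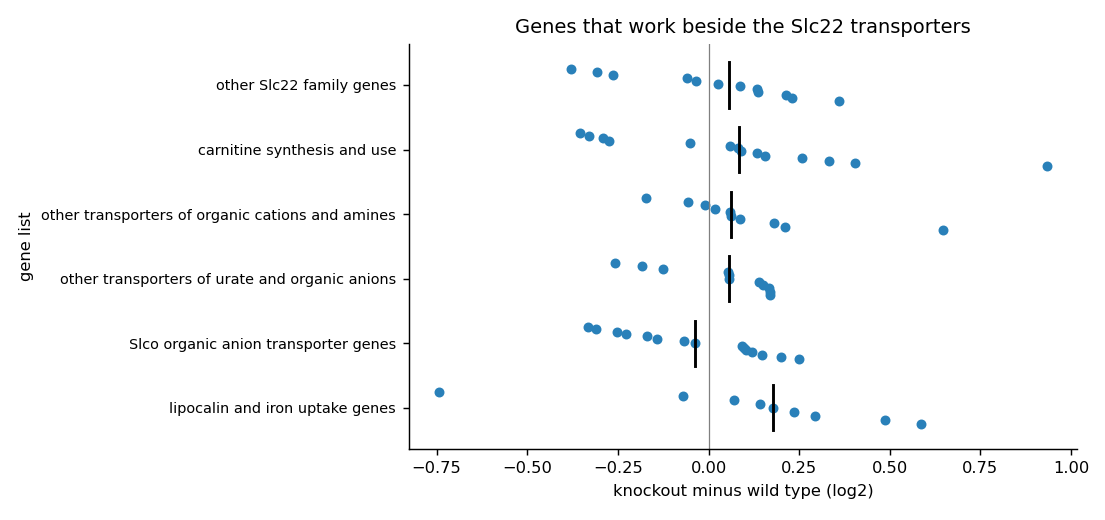
Knockout minus wild type on the log2 scale for the measured genes of 6 lists, 1 point a gene and a black line at the median of each list. Medians run from -0.04 to 0.18, and the outlying points are Slc6a14 at 0.93, Lcn2 at -0.74, Maob at 0.65 and Aco1 at 0.59.

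Markers of the cell types in the tissue were read beside these values. The 10 Sertoli cell markers had a median difference of 0.39, with 9 of 10 above 0. Their mean ran from 8.36 to 8.42 in knockout and from 8.04 to 8.08 in wild type, with no overlap. In limma 0 of the 10 had an adjusted p under 0.05. At an unadjusted p under 0.05 limma had 6 higher and 0 lower, where 6.81% of all probe sets were higher and 8.31% lower. The means of the 5 adipose markers did not overlap either, at 5.73 to 5.98 in knockout and 4.97 to 5.53 in wild type. All 5 genes lay above 0, with a median of 0.34. Lep was below the lower quartile on all 6 arrays and Cidec on 5, and besides Fabp4 the differences ran from 0.11 for Lep to 0.40 for Cidec. Fabp4, a fatty acid binding protein of adipocytes and macrophages, had the largest, at 6.89, 7.93 and 8.02 in knockout, against 5.47, 4.23 and 6.51 in wild type. Its groups did not overlap, and its difference of 2.21 (SE 0.53, limma adjusted p = 0.188) was close in size to that of Slc22a29. At high and low 18S signal the Fabp4 difference was 2.04 and 1.465, against 2.07 and 2.425 for Slc22a29. Both lists had the same sign as Slc22a29, but so did the medians of all other marker lists except spermatocyte and kidney tubule. The 4 Leydig markers had a median of 0.38, with 0.16 at high and 0.50 at low 18S signal, and their means overlapped between the genotypes. The 4 endothelial markers had a median of 0.17, with 0.05 at high and 0.255 at low 18S signal. The median of the 6 leukocyte markers was 0.36, but it was -0.14 at high and 0.42 at low 18S signal. That of the 5 peritubular myoid markers was 0.11, with -0.045 at high and 0.365 at low 18S signal. The medians were 0.035 for spermatogonia, -0.04 for spermatocytes, 0.02 for round spermatids and 0.01 for elongating spermatids, the cells beside which the values of Slc22a14 and Slc22a16 are read. Epididymis markers had a median of 0.02 and kidney tubule markers -0.055. The part of any of these cells in the Slc22 values was not tested.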

How the data were processed

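The authors deposited 1 value per probe set and array, which the submitters' processing notes credit to Affymetrix Expression Console 1.4.1. The range of the deposited values is that of a log2 scale. How probes were summarized and arrays normalized is not stated here. The number of arrays limits the precision. From these values, 64 control probe sets were left out and 45037 were fitted on genotype with limma 3.58.1 in R 4.3.3 (lmFit, eBayes, two-sided, Benjamini-Hochberg over all, threshold 0.05, no filter). The fit was tested on simulated data. In the platform annotation 34945 probe sets had 1 symbol, 932 several and 9160 none. Where a list needed 1 value a gene, the probe set with the highest mean was used. The 10 genes, the 6 lists and the 12 marker lists were chosen with earlier results of these data known. Named were all members, up to 3 genes a list by smallest p, the 5 genes most correlated with Slc22a29, Phf13, and chromosomal neighbours; genes named outside this rule, namely Slc6a14, Acadm, Tmlhe, Slc22a18, Fabp4 and the kidney markers, were chosen after their values were seen. Sequences upstream of 1 transcript start per gene are from RefSeq, GRCm38.p6, and 9 of the 10 genes matched. The sequences were aligned locally with Biopython 1.88 (match 2, mismatch -3, gap opening -5, gap extension -2). Alternatives covered blocks, scaling, a filter on low values, moderation and leaving out each array.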

Additional observations from a re-analysis of the deposited data

How the results depend on the processing

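The difference of Slc22a29 kept its direction in all 16 alternatives, from 2.04 without knockout 2 to 2.45 with array weights, and leaving out 1 array at a time gave 2.04 to 2.45. With the replicate block it was 2.30, and the block changed no count of calls among the members or the listed genes. Deviations of same-numbered arrays correlated at 0.26, 0.07 and 0.12, so the numbers were not taken as pairs; knockout 2 correlated best with wild type 3. The count of member probe sets called higher was 1, and became 0 with title code runs as a block; without 1 array it ran from 0 to 1. The count called lower was 0 throughout. Among the listed genes, the counts of 0 became 5 higher and 5 lower with array weights, 1 lower, Lcn2, with an intensity trend and robust moderation, and 1 higher, Maob, without knockout 1; without other arrays they stayed at 0. Of the 17 probe sets of the other family genes, 0 were called, but 4 were called lower with array weights (both of Slc22a18, 1 of Slc22a15 and that of Slc22a22) and 2 without wild type 3 (1 each of Slc22a18 and Slc22a15). The probe set annotated to Slc22a30 and Slc22a29 was called in all 14 alternatives with a test. Over all probe sets the 25 higher and 20 lower calls were 1654 and 1532 with array weights, 66 and 44 with trend and robust moderation, 12 and 4 with title code runs, 22 and 6 with the replicate block, 48 and 52 at an adjusted p under 0.1, and from 8 to 178 and from 4 to 998 without 1 array, the highest being without wild type 3; among 22511 probe sets above the median level they were 37 and 42. Background correction could not be varied, since no scanner values were used here.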

Other observations

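The genes whose values over the 6 arrays were most like those of Slc22a29 by Pearson correlation were Atrnl1 (0.99), Ano4 (0.99), Yy1 (0.99), Inhbb (0.99) and Tmem184a (0.99), each from 1 probe set; with 6 arrays in 2 genotypes such values carry no test. Picking genes by likeness to Slc22a29 favours those that separate the genotypes, so no test is read from their genotype differences. These differed in size: Ano4, a gene of the anoctamin membrane protein family, was at 4.61 ± 0.155 in knockout and 3.75 ± 0.05 in wild type (SD, n = 3 each), a difference of 0.86. Inhbb, which encodes an inhibin and activin subunit and is among the Sertoli cell markers, differed by 0.41, Atrnl1 by 0.30, Tmem184a by 0.28 and Yy1 by 0.10.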
